A study of Mus musculus with 8 samples.

Results

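The comparison described here set extended pluripotent stem cells (EPSCs) against embryonic stem cells (ESCs) of the E14 line, with 2 RNA sequencing libraries of each. Its members were the genes with a mean of at least 1 FPKM (the fragments read from a gene, scaled by its length and by the size of the library) in either group, which were 11784 of the 24354 genes listed. The EPSCs were a wild-type line derived from C57BL/6 embryos at the 8-cell stage and carry the label p15. They were grown in N2B27-based LCDM medium, which holds human LIF, CHIR99021 (an inhibitor of GSK3), dimethindene maleate (a blocker of histamine and muscarinic receptors), and minocycline hydrochloride. The E14 ESCs were wild type and were grown in medium with serum and LIF. Both were kept on mitotically inactivated mouse embryonic fibroblasts as feeder cells, which for the EPSCs came from C3H mice. The series also holds 2 libraries of neural stem cells (NSCs) of OG2/ROSA26 mice and 2 of EPSC-NSC hybrid cells with the label p10, which shared the spread estimate of the test below. Each group was a single line, so line, mouse strain, medium, and potency state cannot be told apart, and the spread between 2 libraries of a line may be technical.

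Mouse ESCs resemble the epiblast of the blastocyst, are held in self-renewal by LIF acting through STAT3, and normally contribute to the embryo proper. EPSCs were derived to contribute to extraembryonic tissue as well, in a medium that holds small molecules and no serum but a serum replacement. Naive, formative, and primed pluripotency are successive states of the epiblast, each with its own transcription factors, while a rare 2-cell-like state marked by the Zscan4 genes appears within ESC cultures.

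The labels were checked against markers of pluripotent cells, which can tell both groups from NSCs but not ESCs from EPSCs. Pou5f1, the core pluripotency factor OCT4, was at 1106 and 1048 FPKM in the ESC libraries and 949 and 790.2 FPKM in the EPSC libraries. Nanog was at 310.2 and 307 FPKM and 352 and 334 FPKM. The NSC libraries had 0 and 0 FPKM of Pou5f1 and 0.296 and 0.155 FPKM of Nanog. The depth of each library was derived from the steps on which low FPKM values lie, and came to 32.6 and 29.9 (ESC) and 22.1 and 23 (EPSC), in units of 1000000 fragments. A floor of 3 fragments on a 2000-nucleotide transcript corresponds to 0.0511 to 0.0754 FPKM, for counting error only. Libraries of a group had a Pearson correlation of 0.991 (ESC) and 0.990 (EPSC) across genes, which are not independent replicates, and differed by at least 2-fold in 29 and 54 genes.

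The difference between the lines was broad and mostly small. limma on log2(FPKM + 1), with Benjamini-Hochberg adjustment over the 11784 genes and a threshold of 0.05, called 7756 genes (65.8%), of which 4289 were higher in EPSCs (36.4%) and 3467 lower (29.4%). The balance turned when values were scaled to a common sum, with 3960 genes called higher and 4026 lower of 12558 tested. Fold changes below are EPSC minus ESC on the log2(FPKM + 1) scale, which understates the change of low genes, and "rose" and "fell" are used of called genes. Counts of list members that rose or fell are to be read beside the 36.4% and 29.4% of all genes. The median log2 fold change over all genes was 0.06, and the median absolute value was 0.379. Of the called genes, 6446 changed by less than 2-fold. At least 2-fold changes were called in 673 genes that rose (5.71%) and 637 that fell (5.41%), and in each of these the 4 libraries did not overlap between groups, as they did not in 85.6% of all genes tested. By the threshold of the study's methods, here read as over 3 FPKM in the group with more RNA and over 3-fold between means, 312 genes were higher (2.65%) and 313 were lower (2.66%). Large changes were few, with 33 genes up and 26 down by a log2 value of at least 3. With 2 libraries against 2, an exact permutation test of a single gene cannot go below p = 0.333, so calls rest on the spread shared across genes and groups. Protein-coding genes reached the 2-fold call in 10.6% of 11392, and long non-coding RNAs in 24.6% of 228.

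**Figure D1:**
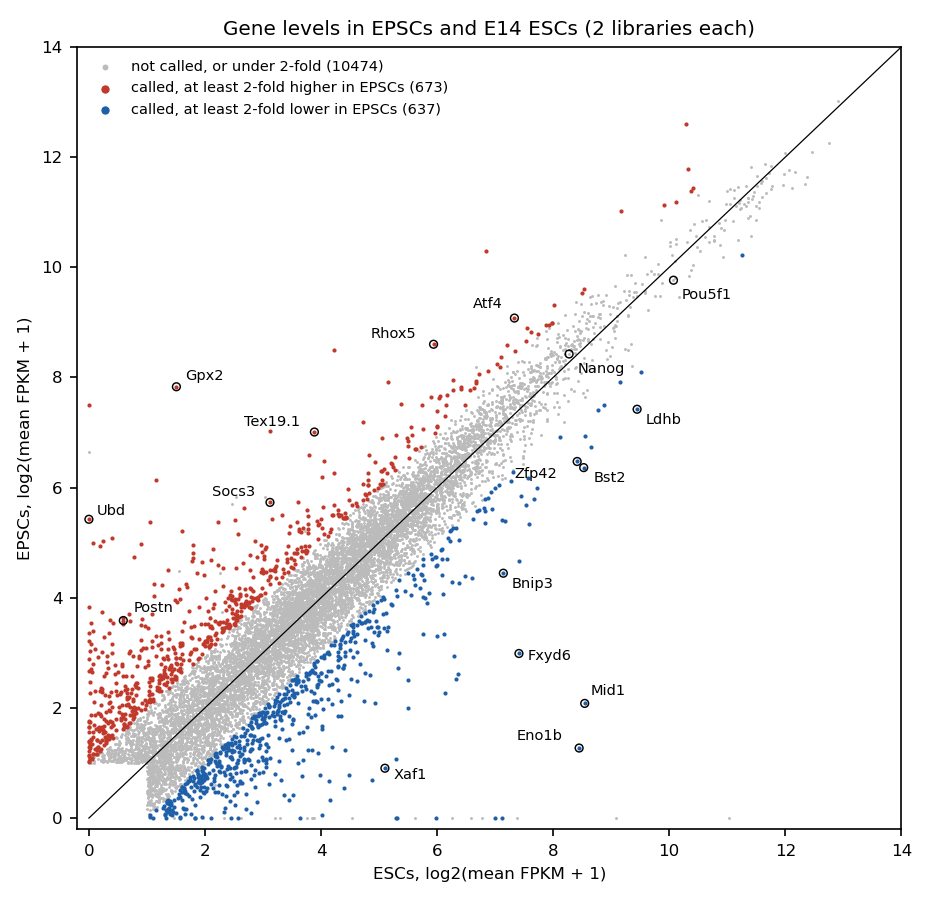
The log2 of the mean FPKM + 1 of the 2 ESC libraries (x axis) against that of the 2 EPSC libraries (y axis) for the 11784 genes tested, with each point a gene, in red the 673 called at least 2-fold higher in EPSCs, in blue the 637 called at least 2-fold lower, in grey the other genes, and circles around named genes. Most genes lie near the diagonal line of equal levels, with Gpx2 far above it and Mid1 far below it.

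Single genes separated the lines by 2 orders of magnitude. Gpx2, an epithelial glutathione peroxidase at chr12:76792335-76795554 (GRCm38.p6), was at 1.73 and 1.96 FPKM in ESCs and 236 and 217 FPKM in EPSCs, a ratio of means of 123 (log2 fold change 6.32 ± 0.0822, adjusted p = 1.17e-08). Mid1, an X-linked ubiquitin ligase of microtubules at chrX:169685199-169990798, was at 372 and 372 FPKM in ESCs and 3.47 and 3 FPKM in EPSCs, 115-fold lower (log2 fold change -6.46 ± 0.0832, adjusted p = 1.17e-08). In both genes the libraries of a group lay close together and far from the other group. Hybrid cells, which descend in part from the EPSC line, had 124 and 139 FPKM of Gpx2 and 2.68 and 3.12 FPKM of Mid1.

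Among the 10 genes with the largest rise, Ubd, a ubiquitin-like modifier also called FAT10, was listed at 0 in both ESC libraries and at 41.3 and 42.6 FPKM in EPSCs. Apoa2, an apolipoprotein of high-density lipoprotein, rose from 0.178 and 0.199 to 35.6 and 28.0 FPKM. Rec114, a factor for meiotic DNA breaks, rose from 0.305 and 0.331 to 29.1 and 36.6 FPKM. In all of these the ESC libraries were near or at 0, and both EPSC libraries were far above them. AI662270, a long non-coding RNA, rose with a log2 fold change of 4.33, and 2 transcribed pseudogenes, BC052688 and 2210409E12Rik, with values of 4.72 and 4.27. The fall of Fxyd6, a regulator of the sodium pump, was from 173 and 166 to 6.11 and 7.76 FPKM, with a log2 fold change of -4.43 ± 0.0979. Oas2, an interferon-induced gene and also among the 10 largest falls, is described with its list below.

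Some of the largest values belong to genes with near-identical copies, where the assignment of reads between copies is uncertain. Eno1b fell from 365 and 332 to 1.54 and 1.29 FPKM, while Eno1, the glycolytic enolase, was at 1588 and 1552 FPKM in ESCs and 1694 and 1293 FPKM in EPSCs and was not called (adjusted p = 0.694). Cyct, the testis form of cytochrome c, rose from 1.21 and 1.24 to 78.5 and 60.1 FPKM, and Cycs, the somatic form, from 18.7 and 18.5 to 38.3 and 36.6 FPKM. The copies of a pair therefore did not move alike, with a large step in one member and a smaller one or none in the other. Eif3j1 was at 0.0436 and 0.0477 FPKM in ESCs and 12.2 and 49.2 FPKM in EPSCs, and Eif3j2 at 17.5 and 16.7 FPKM and 53.5 and 6.42 FPKM. In the EPSC libraries the 2 copies traded places, and the Eif3j1 call was lost without ESC replicate 1, ESC replicate 2, or EPSC replicate 2 (adjusted p = 0.0589, 0.0553, and 0.0679). Gm7367, a transcribed pseudogene, and Gm4737 fell by 5.27 and 4.23 on the log2 scale.

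The remaining 4 of the 10 largest falls were short features. Snord35a, Snora68, and Snora75, which are small nucleolar RNAs, and Mir6516, a microRNA precursor, were listed at 0 in both EPSC libraries and in the hybrid and NSC libraries. Snora68 was at 215 and 39.7 FPKM in the ESC libraries and Snora75 at 15.4 and 61.6 FPKM, so the 2 ESC libraries differed from each other several-fold. Of the 44 short features tested, which span 63 to 248 bases, 26 had a library at 0 and the other above 0 within a group. Poly-A libraries are not made to capture such RNAs.

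**Figure D2:**
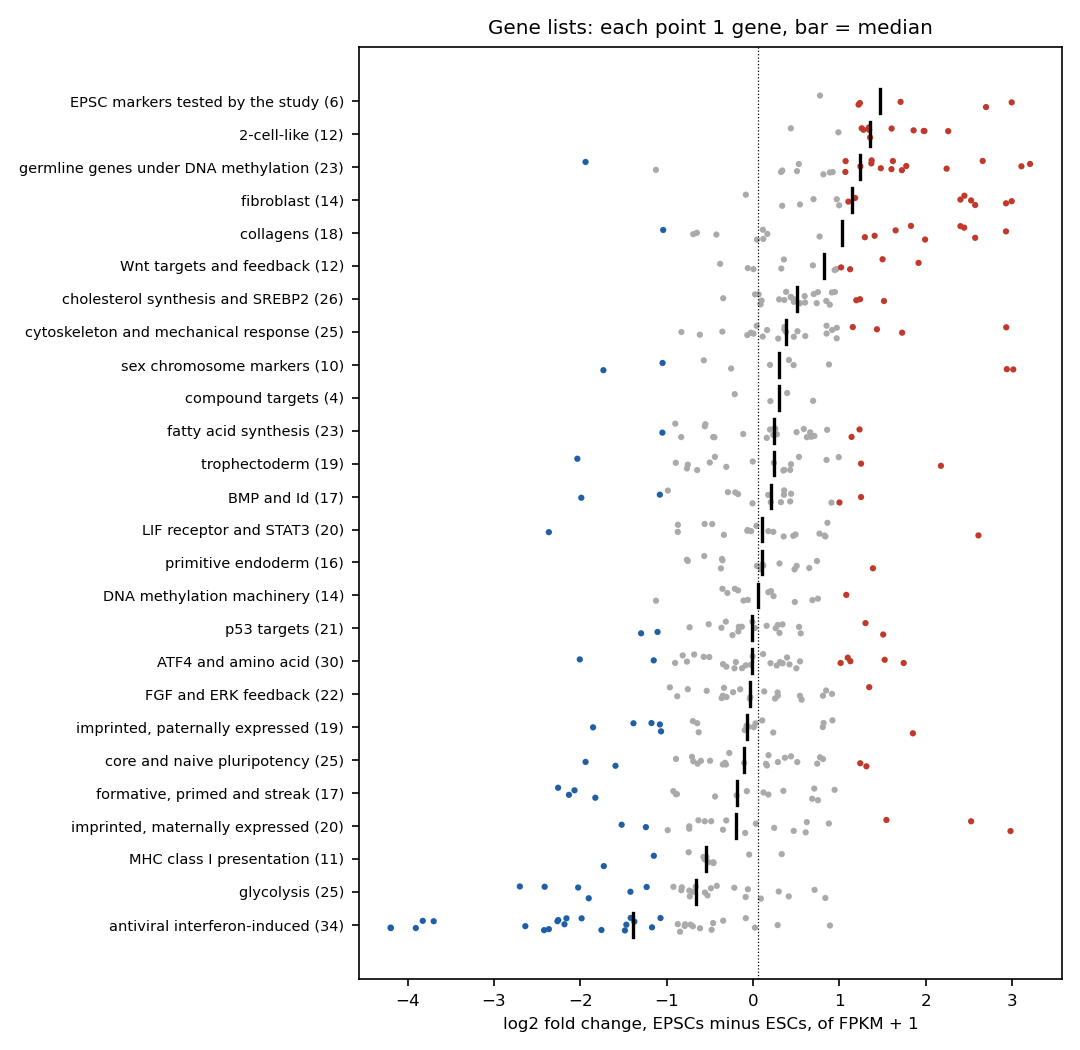
Log2 fold change of FPKM + 1 (x axis, EPSCs minus ESCs) of each tested gene in the 26 gene lists (rows, with the number tested), with called changes of at least 2-fold in red (higher) and blue (lower), the median of each list as a black bar, and the median of all genes, 0.06, as a dotted line. The antiviral list has the lowest median, -1.40, and the 5 lists at the top have medians above 1.

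The core of the pluripotency network was present in both lines, and the naive factors split. Of 25 listed factors, 7 rose, 11 fell, and 7 were not called, with a median log2 fold change of -0.10 (-0.16 to -0.04 without 1 library, the extremes without ESC replicate 2 and ESC replicate 1). Klf4, a naive factor downstream of STAT3, was at 52.9 and 53.1 FPKM in ESCs and 132 and 135 FPKM in EPSCs (log2 fold change 1.31 ± 0.131, adjusted p = 9.44e-05). Dppa3, also called Stella, a maternal factor that protects methylation, rose from 31.7 and 32.2 to 88.0 and 67.1 FPKM (log2 fold change 1.24 ± 0.114). Both EPSC libraries lay above both ESC libraries in each gene. Tfcp2l1, Klf5, Tdh, and Esrrb, which are also naive markers, rose by less than 2-fold, with log2 fold changes of 0.78, 0.74, 0.81, and 0.44.

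Zfp42 (REX1), a much used marker of naive cells, went the other way. It was at 346 and 335 FPKM in ESCs and 87.4 and 88.4 FPKM in EPSCs, 3.87-fold lower (log2 fold change -1.94 ± 0.0673, adjusted p = 8.82e-07), and at 228 and 201 FPKM in hybrid cells. Zfp42 lies on chromosome 8 (chr8:43295067-43307009), whose genes were low in EPSCs as a whole, as described below. Tcl1, a cofactor of AKT, fell from 175 and 169.5 to 61.4 and 52.0 FPKM. Sall4, Gdf3, Prdm14, Klf2, and Utf1 fell with log2 fold changes of -0.89, -0.71, -0.69, -0.64, and -0.60. Pou5f1 had a log2 fold change of -0.31 ± 0.140 and Nanog of 0.15 ± 0.0670, and neither was called (adjusted p = 0.0807 and 0.0801). Pou5f1 was called when values were scaled to a common sum (log2 fold change -0.38, adjusted p = 0.0289) and without either hybrid library (adjusted p = 0.015). Nanog ranged from -0.07 to 0.19 over the alternatives, with a lowest limma adjusted p of 0.0373. Sox2 had a log2 fold change of -0.27 and lost its call without ESC replicate 2 (adjusted p = 0.0673).

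Among genes of formative and primed pluripotency and of the primitive streak, several formative factors fell in EPSCs. Of the 17 tested, 4 rose and 8 fell, 4 of these by at least 2-fold, beside 36.4% of all genes called higher and 29.4% lower. The median was -0.19, or -0.88 at a minimum of 3 FPKM, -0.37 without EPSC replicate 1, and -0.12 without ESC replicate 2. A gene below 1 FPKM in one group passed the filter through the other group alone, which fixed its direction, and of the 12 that passed through both groups 2 rose and 5 fell, with Pou3f1 and Fgf15 not among them. Otx2, the factor that opens the formative state, was at 14.2 and 12.3 FPKM in ESCs and 3.58 and 1.52 FPKM in EPSCs (log2 fold change -2.07 ± 0.255, adjusted p = 2.60e-04). Pou3f1 (OCT6), its partner, fell from 5.80 and 5.99 to 0.885 and 1.01 FPKM. The EPSC libraries lay below the ESC libraries by several-fold in both genes. Lefty1, a Nodal antagonist and Nodal target, fell from 27.2 and 28.2 to 6.10 and 4.08 FPKM, and Nodal itself from 69.8 and 71.5 to 39.3 and 36.6 FPKM. Fgf15 fell from 4.63 and 4.19 to 0.339 and 0.136 FPKM. Dnmt3b, a de novo methyltransferase of the formative epiblast, was higher in EPSCs, at 87.7 and 63.5 FPKM against 44.2 and 43.7 FPKM. The primed marker Fgf5 was below 1 FPKM in both groups.

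LIF signals through its receptor and JAK kinases to STAT3, which induces its own inhibitor Socs3. Of 20 genes of this pathway, 8 rose and 5 fell, near the 36.4% and 29.4% of all genes. Socs3 was at 7.65 and 7.74 FPKM in ESCs and 54.2 and 50.1 FPKM in EPSCs, 6.78-fold higher (log2 fold change 2.61 ± 0.0819, adjusted p = 5.77e-07). Stat3 rose from 18.95 and 18.9 to 32.2 and 37.2 FPKM, and Cish, another inhibitor of JAK-STAT signalling, from 1.34 and 1.58 to 3.38 and 3.56 FPKM. These 3 genes were higher in each EPSC library than in each ESC library. The receptor gene Lifr was at 9.30 and 9.37 FPKM and 10.03 and 11.4 FPKM and was not called, while Osmr, a receptor chain for the related cytokine oncostatin M, rose from 0.146 and 0.240 to 1.18 and 1.06 FPKM. In contrast, Socs1 fell from 4.71 and 4.95 to 2.47 and 1.93 FPKM. The median of the list was 0.11, or 0.23 without EPSC replicate 1 and 0.03 without EPSC replicate 2, against 0.06 over all genes. Of the 20, 2 passed the filter through the EPSC libraries alone, Osmr among them, which fixed their direction. Of the 18 that passed through both groups, 6 rose and 5 fell.

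Several targets and feedback genes of canonical Wnt signalling rose in EPSCs. The EPSC medium holds a GSK3 inhibitor, and its part in the rise was not tested. Of the 12 tested, 8 rose, 4 of them by at least 2-fold, none fell, and the median log2 fold change was 0.82, or 0.24 without the filter on low values, 0.41 without EPSC replicate 1, and 0.47 when values were scaled to a common sum. Sp5 and T, described below, passed the filter through the EPSC libraries alone, which fixed their direction. Of the 10 that passed through both groups, 6 rose and 4 were not called. Cdx1, a caudal homeobox factor, was at 2.71 and 2.74 FPKM in ESCs and 11.1 and 15.4 FPKM in EPSCs (log2 fold change 1.92 ± 0.146, adjusted p = 2.74e-05). Sp5, a transcriptional repressor that is a direct Wnt target, rose from 0.596 and 0.597 to 3.66 and 3.38 FPKM, 5.90-fold. Axin2, the feedback inhibitor of the pathway, rose from 4.06 and 4.02 to 10.02 and 9.95 FPKM (log2 fold change 1.12 ± 0.120). The 2 libraries of each group agreed closely in Sp5 and Axin2. Tnfrsf19 rose with a log2 fold change of 1.02. Lef1 was at 2.29 and 1.79 FPKM and 8.21 and 2.81 FPKM, so that its 2 EPSC libraries differed from each other more than the lower of them did from ESCs. It was not called (log2 fold change 0.97 ± 0.476, adjusted p = 0.107), and the fold change was 1.6 without EPSC replicate 2 and 0.33 without EPSC replicate 1. Without hybrid replicate 1 or hybrid replicate 2 the adjusted p of Lef1 was 0.0469 and 0.0467. T (Brachyury) rose from 0.496 and 0.469 to 2.21 and 1.54 FPKM, a call lost without ESC replicate 1, ESC replicate 2, or EPSC replicate 1 (adjusted p = 0.0926, 0.096, and 0.116). The 8 listed genes that were not tested, Lgr5 and Cdx2 among them, were below 1 FPKM.

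The promoters of Socs3 and Sp5 are shown because both genes rose and their promoters hold the site of the factor at the end of their pathway. RefSeq promoters of GRCm38.p6 (250 bases before to 50 after the gene start) were searched on both strands for the STAT site TTCNNNGAA and the TCF/LEF site CTTTGAT. The 160 bases before each start are printed 5′ to 3′ on the strand of the gene, with the match in capitals.
Socs3 (chr11:117969367-117969526, minus strand): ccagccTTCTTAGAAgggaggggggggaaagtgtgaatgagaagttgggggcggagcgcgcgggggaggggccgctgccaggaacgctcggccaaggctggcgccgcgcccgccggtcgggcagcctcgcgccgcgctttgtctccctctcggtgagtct
Sp5 (chr2:70474763-70474922, plus strand): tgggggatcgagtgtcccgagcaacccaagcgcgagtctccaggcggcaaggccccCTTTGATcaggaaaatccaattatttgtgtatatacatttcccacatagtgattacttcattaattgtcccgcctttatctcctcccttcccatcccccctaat
The STAT site was found in 2 of the 18 promoters of the LIF list (11.1%), those of Socs3 and Cish, against 9.55% of all 27025 promoters. The TCF/LEF site was found in 2 of 6 promoters of the Wnt list (33.3%), those of Sp5 and Tnfrsf19, against 4.29% of all. A match is a description of the letters and not of binding.

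Of 22 FGF and ERK genes, 6 were higher and 5 lower, beside 36.4% and 29.4% of all genes, with a median of -0.03. The immediate early gene Fos rose from 8.26 and 8.53 to 22.1 and 23.6 FPKM and Etv4, an ERK-induced ETS factor, from 34.4 and 33.2 to 62.0 and 58.0 FPKM. The feedback inhibitor Spry4 fell from 46.9 and 47.0 to 26.2 and 21.2 FPKM, while Spry2, a close relative, rose from 33.8 and 33.5 to 47.5 and 51.7 FPKM. Members of the same family thus moved in opposite directions. Dusp6, the ERK phosphatase, was at 30.1 and 33.3 FPKM and 25.8 and 23.02 FPKM and was not called, although it was without either hybrid library (adjusted p = 0.012).

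Genes of the BMP pathway moved in both directions. Bmp4 was at 75.5 and 76.1 FPKM in ESCs and 20.7 and 16.2 FPKM in EPSCs, 4.10-fold lower (log2 fold change -1.99 ± 0.136, adjusted p = 1.67e-05). The receptor gene Bmpr1a rose from 11.0 and 11.1 to 20.9 and 22.4 FPKM. Of the Id genes, which encode inhibitors of differentiation factors, Id2 rose from 10.8 and 12.4 to 24.9 and 33.4 FPKM and Id3 from 32.3 and 32.5 to 67.4 and 64.5 FPKM, and Id4 fell from 7.23 and 7.94 to 3.77 and 2.45 FPKM. Id1 was not called. Msx2, a homeobox target of the pathway, fell from 1.42 and 1.82 to 0.347 and 0.289 FPKM. It passed the filter through the ESC libraries alone, which fixed its direction. In total 6 of 17 rose and 3 fell, beside 36.4% and 29.4% of all genes, with a median of 0.21. Of the 16 that passed the filter through both groups, 6 rose and 2 fell. Among the proteins that the compounds of the medium are known or proposed to act on, Gsk3b rose from 7.66 and 8.12 to 12.1 and 14.8 FPKM and Parp1 from 174 and 175 to 230.3 and 229.6 FPKM, each by less than 2-fold. The other tested targets, Gsk3a and Parp2, were not called, though they were in 4 and 5 of the alternatives. The 9 histamine and muscarinic receptor genes were all below 1 FPKM in both groups.

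Of 19 trophectoderm genes tested, 6 rose and 6 fell, and the median of 0.24 turned to -0.06 when values were scaled to a common sum. Of the 16 that passed the filter through both groups 5 rose and 6 fell, and Krt7 was not among them. Krt7, a simple epithelial keratin, was at 0.460 and 0.525 FPKM in ESCs and 4.90 and 6.72 FPKM in EPSCs (log2 fold change 2.18 ± 0.206, adjusted p = 7.46e-05). Tead4, the factor that starts the trophectoderm programme with YAP, rose from 6.48 and 5.98 to 13.9 and 12.9 FPKM, and Krt8 from 11.3 and 10.4 to 21.9 and 18.9 FPKM. In each of the 3 genes both EPSC libraries were above both ESC libraries. Krt19 fell from 7.37 and 6.93 to 4.28 and 3.36 FPKM and Lgals3, a galectin, from 69.7 and 65.0 to 15.4 and 15.9 FPKM. The 5 markers of the lineage summed to 3.52 and 4.47 FPKM in ESCs and 9.56 and 13.2 FPKM in EPSCs, with Krt7 the one that rose by at least 2-fold. The factors among them were low, with Cdx2 and Elf5 below 1 FPKM in both groups, Eomes at 2.55 and 3.18 FPKM and 3.54 and 4.32 FPKM, and Gata3 at 0.316 and 0.500 FPKM and 0.570 and 1.63 FPKM. Eomes was not called (adjusted p = 0.0966), though it was without hybrid replicate 1 or hybrid replicate 2 (adjusted p = 0.0317 and 0.0322), and Gata3 was not called (adjusted p = 0.0735), but was without EPSC replicate 1 (log2 fold change 0.90, adjusted p = 0.00355).

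Of 16 primitive endoderm genes, 6 rose and 5 fell, with a median of 0.10, and of the 13 that passed the filter through both groups 4 rose and 4 fell. Sparc, a matrix protein of parietal endoderm that fibroblasts also make, rose from 62.8 and 63.1 to 154 and 181 FPKM, and the laminin chain Lamb1 from 11.9 and 12.6 to 20.3 and 22.1 FPKM. Gata4, a defining factor of the lineage, fell from 1.78 and 1.54 to 0.806 and 0.790 FPKM. Sox7 and Pdgfra, also markers of it, rose with log2 fold changes of 0.48 and 0.65, and the Sox7 call was lost in 5 of the alternatives. Gata4 passed the filter through the ESC libraries alone and Pdgfra through the EPSC libraries alone, which fixed their directions. Gata6 and Sox17 were below 1 FPKM in both groups. The 5 markers of the lineage summed to 4.75 and 4.66 FPKM in ESCs and 6.19 and 5.05 FPKM in EPSCs.

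Genes of the 2-cell-like state, which the embryo uses at genome activation, were higher in EPSCs at a low level. Of the 23 in the table, 12 passed the filter and were called higher, but all of these except Zfp750 passed it through the EPSC libraries alone, which fixed their direction. The median log2 fold change was 1.35 over those 12 and 0.85 without the filter, and with 0.1 and 3 added to FPKM the former was 3.26 and 0.63. Zscan4d was at 0.221 and 0.223 FPKM in ESCs and 3.19 and 7.18 FPKM in EPSCs (log2 fold change 2.26 ± 0.272, adjusted p = 2.33e-04). Usp17le, a deubiquitinase gene, was at 0.145 and 0.138 FPKM and 1.46 and 3.91 FPKM. Tcstv1 was listed at 0 in both ESC libraries and at 0.889 and 2.42 FPKM in EPSCs. EPSC replicate 2 was the higher of the EPSC libraries in each of these, and the 23 listed genes in the table summed to 3.34 and 3.56 FPKM in ESCs, 21.1 and 51.9 FPKM in EPSCs, and 53.1 and 62.5 FPKM in hybrid cells. The log2 fold changes of Zscan4a, Zscan4c, and Zscan4f were 1.98, 1.86, and 1.98, and moved to 2.66, 2.45, and 2.62 without EPSC replicate 1 and to 1.31, 1.27, and 1.34 without EPSC replicate 2. The other 11 listed genes in the table, with the upstream factor Dux among them, were below 1 FPKM in both groups. The Zscan4, Usp17l, and Tcstv families have near-identical copies, so levels of single members are uncertain. In bulk samples, fewer cells of a type and less RNA per cell cannot be told apart.

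Germline genes that are silenced by promoter methylation in somatic cells were higher in EPSCs. Of 23 tested, 18 rose, 14 of them by at least 2-fold, 1 fell, and the median was 1.24, which was 2.03 and 0.72 with 0.1 and 3 added to FPKM and 0.53 without the filter. Of the 23, 11 passed the filter through the EPSC libraries alone, with Sycp1, Xlr3a, and Xlr4a among them, so their direction was fixed, and of the 12 that passed through both groups 8 rose and 1 fell. Tex19.1, a guard against retrotransposons, was at 14.2 and 13.4 FPKM in ESCs and 109 and 147 FPKM in EPSCs (log2 fold change 3.11 ± 0.123, adjusted p = 1.60e-06). Rhox5, an X-linked homeobox gene, rose from 59.8 and 60.9 to 361 and 415 FPKM, 6.42-fold. Dazl, an RNA-binding protein of germ cells, rose from 2.199 and 1.89 to 8.15 and 10.8 FPKM. In all 3 the groups were far apart compared with the distance between libraries. Xlr3a was listed at 0 in both ESC libraries and at 8.59 and 7.91 FPKM in EPSCs, and the related Xlr4a was likewise listed at 0 in ESCs and at 1.85 and 2.83 FPKM in EPSCs, with reads uncertain between these copies. Piwil2, Sycp1, Hormad1, and Ddx4, which serve piRNA silencing and meiosis, rose with log2 fold changes of 1.6, 1.62, 1.37, and 0.89. Sycp3, a lateral element of the synaptonemal complex, was the gene that fell, from 54.4 and 56.5 to 11.3 and 16.5 FPKM. Hybrid cells had 269.8 and 279 FPKM of Tex19.1 and 952 and 953 FPKM of Rhox5.

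**Figure D3:**
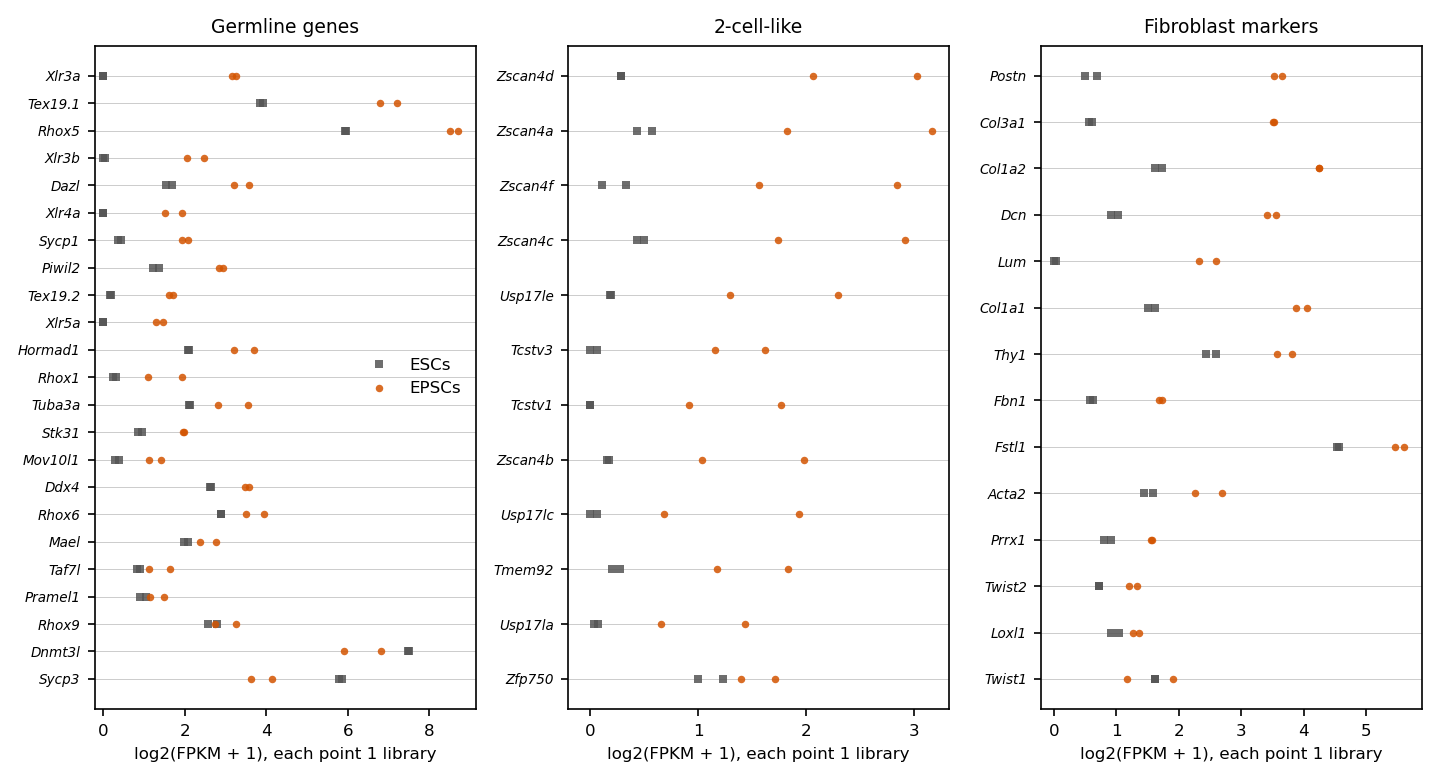
log2(FPKM + 1) (x axis) of each tested germline, 2-cell-like, and fibroblast marker gene (rows, in order of fold change), with grey squares for the 2 ESC libraries and orange circles for the 2 EPSC libraries. Most EPSC points lie right of the ESC points, with Sycp3 and Dnmt3l on the other side, and the 2 EPSC libraries lie farthest apart in the 2-cell-like genes Zscan4a, Zscan4f, and Zscan4c.

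Of 14 genes of the machinery that writes and removes DNA methylation, 5 rose and 3 fell, and the median of 0.06 turned to -0.12 when values were scaled to a common sum and to -0.09 without ESC replicate 1. The maintenance enzyme Dnmt1 was at 72.9 and 74.5 FPKM in ESCs and 66.1 and 70.3 FPKM in EPSCs and was not called, while its partner Uhrf1 rose from 137 and 135 to 194 and 187 FPKM. Tdg, the glycosylase of active demethylation, rose from 6.401 and 6.56 to 14.6 and 15.0 FPKM and the dioxygenase Tet1 from 27.3 and 28.1 to 46.4 and 44.1 FPKM, and the rise of Dnmt3b is given above. Dnmt3l, the cofactor of the de novo enzymes, was at 179 and 176 FPKM in ESCs and 111 and 58.8 FPKM in EPSCs. Its groups did not overlap, but on the log2 scale its EPSC libraries differed more from each other than the nearer of them did from ESCs, and it was not called (log2 fold change -1.12 ± 0.561, adjusted p = 0.111), although it was without hybrid replicate 1 or hybrid replicate 2 (adjusted p = 0.00621 and 0.00616).

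Imprinted genes are expressed from one parental allele, and their counts stand beside 36.4% of all genes called higher and 29.4% called lower. Of 19 paternally expressed genes 4 rose and 7 fell (median -0.08, or -0.13 without EPSC replicate 1 and -0.03 without EPSC replicate 2), and of 20 maternally expressed genes 7 rose and 7 fell (median -0.20, or 0.0112 without the filter). H19, a maternally expressed non-coding RNA at chr7:142575530-142578146, was at 1.596 and 1.17 FPKM in ESCs and 18.4 and 17.1 FPKM in EPSCs, 12.8-fold higher (log2 fold change 2.98 ± 0.151, adjusted p = 4.59e-06), while Igf2, the growth factor of the same locus, was at 3.98 and 3.79 FPKM and 3.83 and 3.996 FPKM and was not called. Grb10, a growth inhibitor, rose from 11.7 and 11.4 to 35.7 and 35.4 FPKM, and the paternally expressed factor Plagl1 from 1.52 and 1.71 to 7.43 and 9.56 FPKM. All 3 risen genes had EPSC libraries well above the ESC libraries. Impact fell from 184 and 184 to 54.1 and 46.7 FPKM, and Cdkn1c, an inhibitor of the cell cycle, from 14.1 and 14.8 to 4.57 and 4.21 FPKM. In the Dlk1-Dio3 domain, the maternally expressed RNA Mirg fell from 18.8 and 19.24 to 10.1 and 5.42 FPKM. Its neighbour Meg3 fell from 63.9 and 65.4 to 46.4 and 31.6 FPKM, and the log2 fold change of Meg3 went from -0.74 to -0.47 without EPSC replicate 2. H19 is also made by embryonic fibroblasts, whose markers were higher in EPSCs as given below, and their part in its level was not tested.

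The list with the lowest median was the interferon-induced antiviral programme, by which cells restrict viruses. Of 34 tested, 29 fell, 20 of them by at least 2-fold, and 1 rose, with a median log2 fold change of -1.40 against 0.06 over all genes, and of -0.97 without the filter. Of the 34, 15 passed the filter through the ESC libraries alone, Usp18, Rtp4, Xaf1, and Oas2 among them, which fixed their direction. Of the 18 that passed through both groups 14 fell and 1 rose. Usp18, the inhibitor of the interferon receptor, was at 21.9 and 20.8 FPKM in ESCs and 0.839 and 0.611 FPKM in EPSCs, 29.4-fold lower (log2 fold change -3.70 ± 0.122, adjusted p = 6.91e-07). Rtp4 fell from 16.7 and 17.0 to 0.232 and 0.286 FPKM and Xaf1, a cell death factor, from 35.0 and 31.7 to 0.832 and 0.913 FPKM. The EPSC libraries were below 1 FPKM in all 3 genes, as their way through the filter required of the EPSC mean. Of the oligoadenylate synthetases, which sense double-stranded RNA, Oas2 fell from 28.0 and 28.5 to 0.813 and 0.403 FPKM, and Oas1b, Oas1g, Oasl1, and Oasl2 fell with log2 fold changes between -1.99 and -2.64. Copies within the Oas1 cluster are alike, and their single levels are uncertain.

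Some regulators of the programme were lower too. Irf7, the factor that amplifies the response, fell from 8.98 and 7.60 to 0.953 and 0.535 FPKM. It passed the filter through the ESC libraries alone, which fixed its direction. Stat2 and Irf9, which act together in the nucleus, fell by less, with log2 fold changes of -0.61 and -0.70. Isg15, a ubiquitin-like modifier, was at 19.9 and 18.96 FPKM in ESCs and 4.44 and 2.31 FPKM in EPSCs, Bst2 (tetherin) fell from 379.5 and 356 to 95.2 and 67.5 FPKM, and Ifitm3, which blocks viral entry, fell from 483 and 455 to 184 and 176 FPKM. In all of these both EPSC libraries lay below both ESC libraries. Irf1 was the gene that rose, from 8.53 and 8.16 to 16.7 and 16.0 FPKM, and Ifitm2, Ddx58, Ifi35, and Dhx58 were not called. Ifitm2 was called lower when values were scaled to a common sum (adjusted p = 0.0461), and Ifi35 higher without EPSC replicate 2 (adjusted p = 0.0396). Hybrid cells were at 1.97 and 2.64 FPKM of Usp18, 2.21 and 2.55 FPKM of Oas2, and 10.7 and 9.63 FPKM of Isg15.

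The promoters of Isg15 and Bst2 are shown because they hold overlapping copies of the core of the interferon-stimulated response element, which reads GAAA, NN, and GAAA without a gap, and are printed as above.
Isg15 (chr4:156200819-156200978, minus strand): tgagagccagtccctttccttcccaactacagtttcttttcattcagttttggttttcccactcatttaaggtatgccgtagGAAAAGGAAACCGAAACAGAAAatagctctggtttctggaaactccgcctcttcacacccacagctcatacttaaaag
Bst2 (chr8:71537473-71537632, minus strand): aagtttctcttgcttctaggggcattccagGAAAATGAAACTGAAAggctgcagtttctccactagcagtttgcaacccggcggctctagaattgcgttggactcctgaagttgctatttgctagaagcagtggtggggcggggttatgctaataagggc
The capitals mark 3 overlapping matches in Isg15, starting 78 bases before the gene start, and 2 in Bst2, starting 130 bases before it. The core was found in 13 of the 24 promoters of this list that could be read (54.2%), against 3.99% of all 27025 promoters and 3.45% of the 8962 promoters of tested genes. It stood in 7 of 12 promoters of genes that fell by at least 2-fold (58.3%) and in 6 of 12 of the other tested genes of the list.

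**Figure D4:**
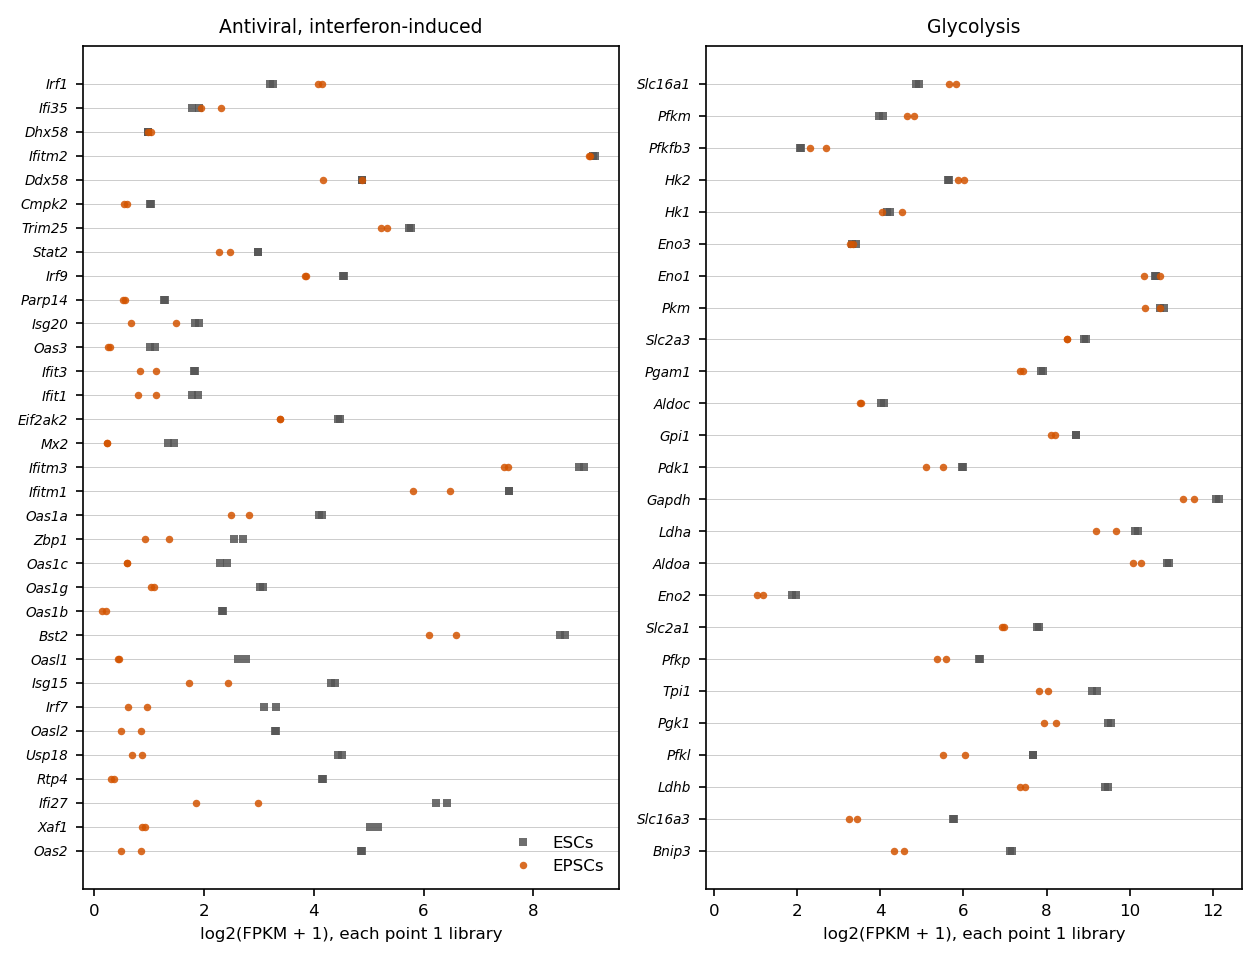
log2(FPKM + 1) (x axis) of the tested antiviral genes, 1 of which is not shown, and glycolysis genes (rows, in order of fold change), with grey squares for the 2 ESC libraries and orange circles for the 2 EPSC libraries. In most genes of both panels the EPSC points lie left of the ESC points, and Irf1 and Slc16a1 at the top of the panels lie on the other side.

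Antigen presentation by MHC class I, whose genes respond to interferon, was also lower, with 9 of 11 tested genes called lower, none called higher, and a median of -0.54. Of the 8 that passed the filter through both groups 7 fell, and Tap1, below 1 FPKM in EPSCs, was not one of these. H2-D1, a class I heavy chain, was at 14.01 and 12.9 FPKM in ESCs and 3.43 and 3.30 FPKM in EPSCs (log2 fold change -1.73 ± 0.109, adjusted p = 1.20e-05). H2-Q4 fell from 6.62 and 6.04 to 2.54 and 2.08 FPKM, B2m, the invariant light chain, from 48.0 and 49.4 to 34.7 and 30.8 FPKM, and the peptide transporter Tap1 from 1.67 and 1.63 to 0.806 and 0.904 FPKM. H2-K1, another heavy chain, was at 14.4 and 13.8 FPKM and 11.7 and 8.49 FPKM, and its call was lost without ESC replicate 1, ESC replicate 2, or EPSC replicate 2 (adjusted p = 0.094, 0.0618, and 0.0651), the last with a log2 fold change of -0.25 in place of -0.46. The heavy chain genes are polymorphic between mouse strains, and their alleles and the lines cannot be told apart here.

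Glycolysis genes formed the other large group that fell. Of 25 tested, 17 fell, 6 by at least 2-fold, and 4 rose, with a median of -0.66. Ldhb, a lactate dehydrogenase, was at 712 and 682 FPKM in ESCs and 178 and 163 FPKM in EPSCs, 4.08-fold lower (log2 fold change -2.03 ± 0.0799, adjusted p = 1.60e-06). Pfkl, a phosphofructokinase, fell from 205 and 202 to 64.2 and 44.8 FPKM and Pgk1, a kinase of the lower pathway, from 744 and 714 to 300.3 and 246 FPKM. Slc16a3 (MCT4), the exporter of lactate, fell from 53.4 and 52.7 to 9.80 and 8.54 FPKM. In each the EPSC libraries were below the ESC libraries. Bnip3, a mitophagy receptor induced together with glycolysis at low oxygen, fell from 143 and 138 to 22.6 and 19.02 FPKM, the largest fold change of the list (-2.70 ± 0.149). Tpi1, Pfkp, Slc2a1 (the glucose transporter GLUT1), Aldoa, and Gapdh fell with log2 fold changes of -1.23, -0.92, -0.83, -0.74, and -0.69. The genes that rose were Slc16a1 (MCT1), Pfkm, Hk2, and Pfkfb3, by up to 0.84 on the log2 scale. The Pfkfb3 call was lost without ESC replicate 1, ESC replicate 2, or EPSC replicate 1 (adjusted p = 0.148, 0.136, and 0.236). Eno1, Eno3, Pkm, and Hk1 were not called. Ldha was at 1175 and 1118 FPKM and 817 and 582 FPKM and lost its call without ESC replicate 1, ESC replicate 2, or EPSC replicate 2 (adjusted p = 0.103, 0.076, and 0.128), the last with a log2 fold change of -0.49 in place of -0.73.

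Genes of cholesterol synthesis under the factor SREBP2 rose together and by small amounts. Of 26, 20 rose, 3 of them by at least 2-fold, 1 fell, and the median was 0.51. Insig1, which holds back the pathway when sterols are plentiful, was at 37.0 and 35.99 FPKM in ESCs and 82.9 and 87.0 FPKM in EPSCs, 2.33-fold higher (log2 fold change 1.20 ± 0.0669, adjusted p = 6.84e-06). Dhcr7, which makes the last step, rose from 11.4 and 10.3 to 25.8 and 28.1 FPKM. Hmgcs1, the first enzyme committed to the pathway, rose from 69.8 and 70.5 to 116 and 119.9 FPKM. The libraries within each group lay close together in these genes. Mvk, an early kinase of the pathway, fell by 0.35 on the log2 scale, a call lost without ESC replicate 1 or EPSC replicate 1 (adjusted p = 0.0925 and 0.0688). The promoter of Hmgcs1 is shown as that of a gene in which the sterol response element TCACNCCAC was found, printed as above.
Hmgcs1 (chr13:119690191-119690350, plus strand): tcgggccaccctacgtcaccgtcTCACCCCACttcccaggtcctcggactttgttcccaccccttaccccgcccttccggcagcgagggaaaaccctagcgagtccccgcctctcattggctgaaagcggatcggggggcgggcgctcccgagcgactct
It was the match in 1 of 18 promoters of the list (5.56%), against 1.44% of all promoters.

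Of 23 fatty acid genes, 12 rose and 6 fell, beside 36.4% and 29.4% of all genes, with a median of 0.24. Fads2, a desaturase, rose from 15.6 and 14.9 to 35.3 and 39.2 FPKM, and Acaca and Acly, which make malonyl-CoA and acetyl-CoA, rose with log2 fold changes of 0.86 and 0.66. The regulator Srebf1 fell from 24.8 and 25.4 to 12.2 and 13.8 FPKM, and Acss2, which activates acetate, from 7.40 and 7.07 to 2.83 and 3.12 FPKM. The members of this list thus moved in both directions.

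The stress factor ATF4 and its targets did not move alike. Atf4 was at 159 and 162 FPKM in ESCs and 556 and 524 FPKM in EPSCs, 3.37-fold higher (log2 fold change 1.74 ± 0.0645, adjusted p = 1.08e-06). Asns, which synthesises asparagine, rose from 246 and 241 to 513 and 474 FPKM, and Psat1, of serine synthesis, from 186 and 181 to 450.1 and 358 FPKM. Both EPSC libraries were above both ESC libraries in each of these. Nupr1, a stress-induced chromatin factor, rose from 67.1 and 74.4 to 202 and 208 FPKM. Other targets fell, among them Cth, of cysteine synthesis, from 151 and 156 to 69.3 and 68.1 FPKM and the glutathione-degrading Chac1 from 42.9 and 40.2 to 23.7 and 22.7 FPKM. Cebpb fell most, from 22.01 and 21.7 to 5.53 and 3.95 FPKM, and Ddit3, a cell death factor, was not called. In total 11 of 30 genes rose and 8 fell, close to the 36.4% and 29.4% of all genes. Their median was -0.01, or 0.10 without EPSC replicate 2.

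Of 21 p53 targets, 5 were called higher and 6 lower, beside 36.4% and 29.4% of all genes. Their median was -0.01, or -0.13 without EPSC replicate 1 and 0.13 without EPSC replicate 2. Cdkn1a (p21), the cell cycle inhibitor, rose from 26.7 and 27.4 to 81.0 and 57.3 FPKM and Pmaip1 (NOXA) from 12.7 and 12.7 to 50.2 and 28.6 FPKM. Both were higher in EPSC replicate 1 than in replicate 2. Bbc3 (PUMA), another cell death gene, fell from 31.2 and 32.5 to 17.3 and 11.7 FPKM and Aen from 51.2 and 52.8 to 19.5 and 21.7 FPKM.

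The 7 genes that the study assayed by qPCR as markers of EPSCs, chosen there from an earlier report, were measured as well. Of the 6 that passed the filter, Postn, Csf1, and Vcam1 did so through the EPSC libraries alone, which fixed their direction, and the other 3, Tnc, Bgn, and Esrp1, rose as well. Postn, a secreted matrix protein, was at 0.409 and 0.608 FPKM in ESCs and 11.5 and 10.5 FPKM in EPSCs (log2 fold change 3.0 ± 0.137, adjusted p = 2.75e-06). Tnc (tenascin C) rose from 2.81 and 2.95 to 23.3 and 25.1 FPKM, 8.402-fold, and Bgn (biglycan) from 11.9 and 13.4 to 43.9 and 43.3 FPKM. The matrix genes were well separated between groups. Esrp1, an epithelial splicing factor, rose from 7.55 and 7.41 to 22.1 and 16.0 FPKM, and Csf1, a macrophage growth factor, from 0.550 and 0.844 to 3.21 and 2.77 FPKM. Vcam1 rose from 0.231 and 0.168 to 1.14 and 0.965 FPKM, a call lost without ESC replicate 2 (adjusted p = 0.0503). Steap4 was below 1 FPKM in both groups, at 0.0940 and 0.0228 FPKM in ESCs and 0.307 and 0.370 FPKM in EPSCs, and was not tested.

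Other matrix and fibroblast genes were higher too. Of 18 collagen genes, 10 rose, 9 by at least 2-fold, and 4 fell, with a median of 1.03, or 1.66 and 0.53 with 0.1 and 3 added to FPKM and 0.17 without the filter. Of the 18, 6 passed the filter through the EPSC libraries alone, Col3a1 among them, and of the 10 that passed through both groups 4 rose and 2 fell. Col3a1 rose from 0.477 and 0.527 to 10.4 and 10.5 FPKM (log2 fold change 2.93 ± 0.121) and Col1a1 from 1.86 and 2.06 to 13.7 and 15.7 FPKM, both of which are fibrillar collagens of fibroblasts. Col6a1 rose from 0.929 and 1.10 to 10.3 and 9.70 FPKM. The basement membrane collagens Col4a1 and Col4a2 were not called, and Col18a1, also of basement membranes, fell from 65.3 and 67.9 to 53.3 and 45.7 FPKM. Of 14 fibroblast markers tested, 13 rose, 8 by at least 2-fold, and Twist1 was not called, with a log2 fold change of 0.29 without EPSC replicate 1 and -0.45 without EPSC replicate 2 (adjusted p = 0.0413 and 0.00778). Of the 14, 8 passed the filter through the EPSC libraries alone, Col3a1, Postn, Dcn, and Lum among them, and of the other 6, 5 rose. Dcn (decorin), a proteoglycan of connective tissue, was at 1.03 and 0.874 FPKM in ESCs and 10.8 and 9.70 FPKM in EPSCs, and Lum (lumican), a relative, at 0 and 0.0178 FPKM and 5.03 and 4.02 FPKM. The 16 markers summed to 40.4 and 41.2 FPKM in ESCs, 145 and 137 FPKM in EPSCs, and 424 and 309 FPKM in hybrid cells, and Fap and Pdgfrb were below 1 FPKM in both groups compared. Several genes stand in more than one of these lists, Postn and the collagens in particular. ESCs and EPSCs were both grown on feeder fibroblasts, and the part of feeder RNA in the rise of Postn, the collagens, and the other matrix genes was not tested.

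Genes of the actin cytoskeleton and the response to mechanical load were on balance higher, with a median of 0.38. Of 25, 15 rose and 3 fell, beside 36.4% and 29.4% of all genes. Anxa1, a membrane-binding annexin, was at 5.68 and 6.07 FPKM in ESCs and 21.7 and 21.8 FPKM in EPSCs, 3.70-fold higher (log2 fold change 1.73 ± 0.150, adjusted p = 4.95e-05). Cav1, of caveolae, rose from 0.991 and 1.24 to 4.36 and 5.07 FPKM, and Actb from 1643 and 1645 to 2569 and 2149.9 FPKM. These genes are active in fibroblasts too, and the marker sums above moved with them, though their part was not tested.

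Chromosome 8 stood apart from the other chromosomes. Its 646 tested genes had a median log2 fold change of -0.29, while the medians of the other 19 chromosomes with at least 100 genes lay between -0.04 and 0.26. On chromosome 8, 20 genes rose and 70 fell by at least 2-fold, and the 70 were 10.8% of its genes, against 2.32% to 7.23% on the others. Of its genes 71.1% had a fold change below 0, against 44.3% on the other autosomes. The median difference of chromosome 8 from the other autosomes was between -0.35 and -0.38 in each of the 4 pairs of an EPSC and an ESC library. It was between -0.48 and -0.50 for hybrid cells and between -0.27 and -0.29 for NSCs, which were compared with the same ESC libraries. The shift ran along the chromosome, with a median below that of all genes in each of the 12 bins of 10 megabases that held at least 20 genes, from -0.54 to -0.02. Zfp42, Bst2, and Klf2 lie on this chromosome. Without it, 653 genes rose and 567 fell by at least 2-fold, a count made after seeing the data. The number of copies of the chromosome in either line was not measured.

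**Figure D5:**
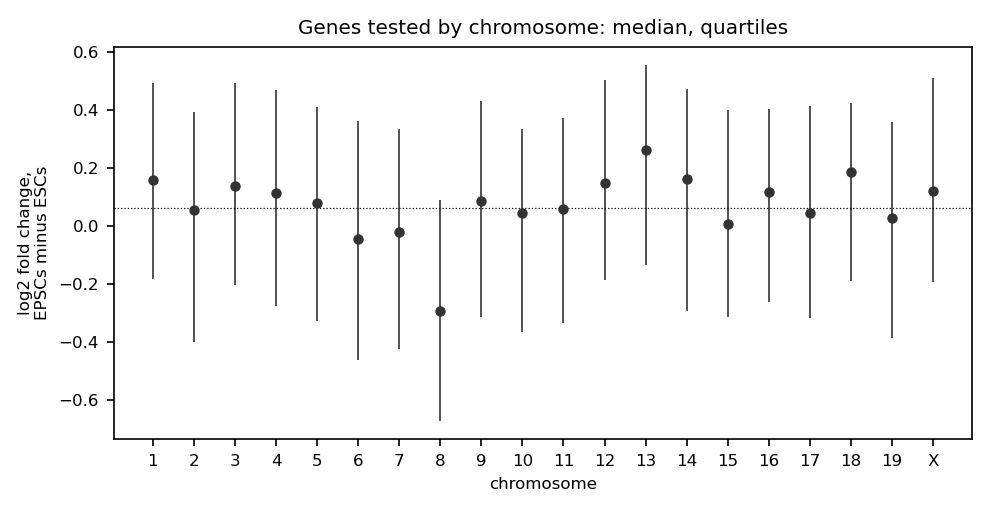
Median log2 fold change (y axis, EPSCs minus ESCs) of the tested genes of each chromosome with at least 100 of them (x axis), with points for medians, bars from the lower to the upper quartile of genes, and a dotted line at the median of all genes, 0.06. Chromosome 8 lies lowest, at -0.29.

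Y-linked genes were read in both lines, but unequally. Eif2s3y, a translation factor, was at 43.9 and 44.3 FPKM in ESCs and 18.6 and 23.2 FPKM in EPSCs, and Uty at 3.85 and 3.90 FPKM and 5.73 and 5.29 FPKM. Kdm5d, a histone demethylase, was at 0.0175 and 0.0192 FPKM in ESCs and at 6.87 and 7.60 FPKM in EPSCs, and Zfy1, a zinc finger protein, was at 0.0593 and 0.104 FPKM and 6.27 and 8.47 FPKM. Some Y-linked genes were thus read in both lines, while others were nearly absent from the ESC libraries. Xist was below 1 FPKM in both groups. Tsix, its antisense RNA, was at 10.04 and 10.9 FPKM and 2.00 and 2.98 FPKM, where the strand setting of the counting is not given in the sources used here.

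The study also examined mitochondrial dynamics. Mfn2, a fusion protein of the outer membrane, was at 9.81 and 9.84 FPKM in ESCs and 7.40 and 8.76 FPKM in EPSCs, and its call (log2 fold change -0.26 ± 0.0834, adjusted p = 0.0259) was lost without ESC replicate 1, ESC replicate 2, or EPSC replicate 1 (adjusted p = 0.105, 0.109, and 0.128), the last with a log2 fold change of -0.15. Dnm1l (DRP1), the fission factor, was at 54.4 and 53.7 FPKM and 52.5 and 59.0 FPKM and was not called.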

How the data were processed

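Poly-A RNA was made into stranded libraries and sequenced in pairs on a NovaSeq. Per the methods and processing notes, the authors trimmed reads with skewer, aligned them to mm10 with STAR 2.7.9a, and deposited 1 table of FPKM values per gene and library from Cuffnorm (Cufflinks 2.2.1). The gene annotation, strand setting, and Cuffnorm normalization are not given in the sources used here. Values did not fall on whole reads (65.5% to 73.9% within 0.05), so no count test was run, and the depths rest on an assumed fragment length of 200.

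Genes were kept at a mean of at least 1 FPKM in ESCs or EPSCs. log2(FPKM + 1) was fitted with limma 3.58.1 in R 4.3.3 over the 8 libraries of all 4 groups without covariates, with the variance trend of limma, and p-values were adjusted by Benjamini-Hochberg over all 11784 genes. Errors after ± are standard errors of the log2 fold change. On simulated data at this size the fit recovered 186 of 200 changed genes, 87 of 100 at a log2 change of 1 and 99 of 100 at 2, and called 15 genes that were not changed. The simulated noise was independent between genes, and far fewer genes were changed than the 7756 called in the real data. The simulation therefore gives no error rate for those calls. Groups came from the labels. The members, gene lists, and named genes were chosen with earlier results of these data known. Named genes were the 10 largest changes in each direction, up to 6 leading and the best known members of each list, the genes the study assayed, and further list members given in the text. Gene symbols were matched to RefSeq (GRCm38.p6) for 99.5% of genes, which gave coordinates, biotypes, and promoters. Alternatives covered the pseudocount, the filter, scaling, the libraries in the fit, a replicate block, a fold threshold, and leaving out each library. A few genes are not reported here.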

Additional observations from a re-analysis of the deposited data

How the results depend on the processing

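The count of genes called at least 2-fold different rested on the pseudocount, with 1025 higher and 1049 lower when 0.1 was added to FPKM and 350 and 308 when 3 was added, against 673 and 637. A test against a 1.5-fold change called 1545 genes, 777 higher and 768 lower. Scaling to a common sum gave 745 higher and 926 lower by at least 2-fold, and 372 and 437 by the study's rule. That sum was 1000000, above the 600674 to 653796 FPKM of the ESC and EPSC libraries. Scaling thus raised every value while the filter, pseudocount, and thresholds stayed the same, and 12558 genes were tested. With both thresholds of the study's rule at 2, 854 genes were higher and 868 lower, and with both at 5, 121 and 115. Without 1 library at a time, 6009 to 8249 genes were called, 3302 to 4563 of them higher and 2673 to 3687 lower, with 663 to 709 higher and 638 to 684 lower by at least 2-fold and 295 to 324 higher and 312 to 340 lower by the study's rule. Fewest were called without ESC replicate 1 and most without hybrid replicate 1. The cause of these shifts was not tested. At 22.1 to 32.6 in units of 1000000 fragments, values under 0.0511 to 0.0754 FPKM on a 2000-nucleotide transcript rest on fewer than 3 fragments.

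List medians close to 0 changed sign. For the DNA methylation machinery (0.06) the median was -0.0601 without the filter, -0.12 with scaling to a common sum, and between -0.0857 and 0.0634 when 1 library was left out, the lowest without ESC replicate 1. The trophectoderm median (0.24) was -0.0026 at a minimum of 3 FPKM and -0.0645 with scaling, the maternally imprinted median (-0.20) was 0.0112 without the filter, and the median of the compound targets (0.30) was 0 without it. Without the filter the medians of the collagen, Wnt, germline, and 2-cell-like lists were 0.17, 0.24, 0.53, and 0.85, against 1.03, 0.82, 1.24, and 1.35 with it, as genes low in both groups then entered, and that of the antiviral list was -0.97 against -1.40. Tfap2c, a trophectoderm and germline factor, was not called, with -0.29 without EPSC replicate 1 and 0.29 without EPSC replicate 2, and Twist1 was not called either, with 0.29 without EPSC replicate 1 and -0.45 without EPSC replicate 2. The cause was not tested.

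Same-numbered libraries shared only a number, since there were 2 pairs and their deviations had a correlation of 0.0569. With the replicate number as a block, 7909 genes were called, of which 7667 were among the 7756 of the fit without it, and 1315 changed at least 2-fold. Among the named genes the block added the calls of Lef1, Gsk3a, Dnmt3l, Pou5f1, Eomes, Gata3, Mdm2, Kdm3a, and Ddit4 and lost that of Hif1a.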

Other observations

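Genes known to be induced at low oxygen were gathered after their values were seen, so they carry no test as a group. Of 21 listed, 19 were tested, of which 15 were called lower, 2 higher, and 2 not called, beside 29.4% of all genes called lower. The calls of Ankrd37 (lower) and Hif1a (higher) lay at the threshold, with limma adjusted p = 0.0494 and 0.0488, and were lost in 14 and 12 of the alternatives, with adjusted p from 0.00261 to 1 and from 0.0356 to 1. Ndufa4l2, a mitochondrial protein induced by HIF-1, was at 81.2 and 81.7 FPKM in ESCs and 5.07 and 5.19 FPKM in EPSCs, with a log2 fold change of -3.75. Cited2, a feedback inhibitor of HIF-1, was at 66.6 and 70.5 FPKM and 9.06 and 9.15 FPKM. The prolyl hydroxylase gene Egln1, whose product marks HIF-1 for decay, was at 16.9 and 17.2 FPKM and 4.92 and 5.79 FPKM, and Ndrg1 at 34.7 and 33.9 FPKM and 8.69 and 5.97 FPKM. In each of these 4 the EPSC libraries lay several-fold below the ESC libraries. Hif1a itself was at 27.4 and 26.9 FPKM in ESCs and 30.5 and 29.9 FPKM in EPSCs, and Hk2 was higher in EPSCs, at 57.7 and 63.8 FPKM against 49.4 and 48.8 FPKM. Kdm3a was at 78.9 and 74.9 FPKM in ESCs and 71.7 and 65.6 FPKM in EPSCs, and Ddit4 at 67.3 and 68.2 FPKM and 59.3 and 47.5 FPKM, and neither was called. Adm was below the filter. Hybrid cells had 0.277 and 0.291 FPKM of Ndufa4l2.

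Genes of epithelial junctions and basement membrane were also gathered after their values were seen. Of 23 listed, 20 were tested, of which 15 were called higher, 2 lower, and 3 not called, beside 36.4% of all genes called higher. Lama3, Krt7, and Galnt6, among those called higher, passed the filter through the EPSC libraries alone, which fixed their direction. Lama3, a laminin chain of epithelial basement membrane, was at 0.0731 and 0.0899 FPKM in ESCs and 3.43 and 4.42 FPKM in EPSCs. Mpzl2, an adhesion molecule of epithelia, was at 5.10 and 4.77 FPKM and 34.1 and 35.4 FPKM, and Plet1, a surface protein of trophoblast and epithelial progenitors, at 2.72 and 3.19 FPKM and 20.2 and 20.3 FPKM. All 3 were above the ESC range in both EPSC libraries. Cldn7, a tight junction protein, was at 7.16 and 7.46 FPKM in ESCs and 29.8 and 29.2 FPKM in EPSCs, and Crb3, a polarity protein, at 5.80 and 6.68 FPKM and 34.1 and 29.4 FPKM. Dsp (desmoplakin) and Krt19 went the other way. Dsp was at 4.89 and 5.12 FPKM in ESCs and 1.97 and 2.56 FPKM in EPSCs, and Krt19 at 7.37 and 6.93 FPKM and 4.28 and 3.36 FPKM. Itga6, a laminin receptor chain, was at 28.2 and 29.1 FPKM and 27.9 and 28.1 FPKM.

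Gpx1, the widely expressed relative of Gpx2, was at 262 and 256 FPKM in ESCs and 648 and 628 FPKM in EPSCs. Olig1 and Olig2, which are factors of the neural lineage and are kept here as single genes noticed after their values were seen, were at 0.341 and 0.203 FPKM and 0.0274 and 0.0746 FPKM in ESCs and at 8.60 and 9.82 FPKM and 5.89 and 6.09 FPKM in EPSCs.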
